A study of Mus musculus with 6 samples.

Results

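The genes described here are 9, B2m and the interferon-induced genes Stat2, Irf1, Irf7, Isg15, Ifit1, Ifit3, Ifi35 and Gbp2, of 15964 genes with a single symbol on the arrays. They were chosen by symbol, with earlier results of these arrays known, so their values are given as a description. They have 13 probe sets of 36701, of which the chip U74Av2 carries 9 and the chips U74Bv2 and U74Cv2 carry 2 each. The labels give the RNA as total RNA from spermatogonia, the dividing germ cells that found spermatogenesis, of mice 1 week old on the background written 129sv/c57Bl6. The Null arrays carry RNA of mice with a Zfp145 knock out and the WT arrays RNA without it. Zfp145 (Zbtb16 in current nomenclature, with the protein PLZF) encodes a BTB zinc finger repressor that in mice has also been linked to the induction of some interferon-stimulated genes. Each genotype had 1 array on each of 3 chips, 6 arrays in all, and the chips carry different probe sets. There are therefore no replicates, and no difference below has a test or a p-value. The labels give neither the part of the gene that was deleted, nor the number of animals, nor how the cells were isolated.

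Interferons are secreted antiviral signals. Type I interferons act through a receptor that activates STAT2, which works with IRF9 at interferon-stimulated response elements, while interferon gamma acts mainly at gamma-activated sites. Both raise genes of antiviral defence and of antigen presentation by MHC class I, a heavy chain paired at the cell surface with the light chain beta-2 microglobulin, the product of B2m. Male germ cells are known for low surface MHC class I.

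Intensities were set against a floor, the 40th percentile of each chip, which was 98.3 for U74Av2, 165 for U74Bv2 and 124 for U74Cv2. A probe set below it on both arrays gives no ratio. The repeated measurement available is that of several probe sets for 1 gene. The spread of their log2 ratios in 3 intensity classes, dim to bright, was 0.35, 0.27 and 0.17 for U74Av2. For U74Bv2 it was 0.35, 0.34 and 0.26, and for U74Cv2 0.57, 0.44 and 0.32. It does not hold the spread between animals. The targeted gene Zbtb16 read 158.1 in Null against 770.2 in WT on U74Av2 and 510.8 in Null against 1156.8 in WT on U74Cv2. Its other probe set on U74Av2 read 16.7 in Null against 50.6 in WT, both below the floor. A probe set outside the deleted part, which the labels do not give, would not check the genotype. Of the germ cell markers 10 of 10 were above the floor in at least 1 probe set, as were 8 of 8 of the supporting Sertoli cells. Of the 15964 genes with a single symbol 12447 were too, so these counts alone do not show which cell types were present. Where RNA comes from more than 1 cell type, fewer cells of a type and less RNA per cell cannot be told apart.

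The promoters of B2m, Stat2, Isg15 and Ifi35 are shown because these genes include the member with the largest difference above the floor, the signalling factor, the member below the floor in Null alone and the member highest in Null. The sequences are the 250 bases before the RefSeq start site, build GRCm38.p6, read 5′ to 3′ on the strand of the gene. B2m lies at chr2:122147437-122147686 and Stat2 at chr10:128270248-128270497, both on the plus strand. Isg15 lies at chr4:156200819-156201068 on the minus strand and Ifi35 at chr11:101448162-101448411 on the plus strand. Capitals mark matches, on either strand, to the core of the interferon-stimulated response element, taken as GAAA and GAAA with any 2 bases between them.
B2m: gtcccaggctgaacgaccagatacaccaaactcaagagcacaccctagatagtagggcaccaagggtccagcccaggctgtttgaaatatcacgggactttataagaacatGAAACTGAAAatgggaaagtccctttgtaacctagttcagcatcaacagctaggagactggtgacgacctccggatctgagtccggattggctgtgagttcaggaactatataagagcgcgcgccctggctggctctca
Stat2: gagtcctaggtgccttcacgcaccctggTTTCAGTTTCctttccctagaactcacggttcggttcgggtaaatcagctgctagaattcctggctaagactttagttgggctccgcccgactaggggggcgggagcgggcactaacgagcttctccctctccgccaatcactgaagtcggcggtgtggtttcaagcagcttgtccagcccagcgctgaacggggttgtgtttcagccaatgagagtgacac
Isg15: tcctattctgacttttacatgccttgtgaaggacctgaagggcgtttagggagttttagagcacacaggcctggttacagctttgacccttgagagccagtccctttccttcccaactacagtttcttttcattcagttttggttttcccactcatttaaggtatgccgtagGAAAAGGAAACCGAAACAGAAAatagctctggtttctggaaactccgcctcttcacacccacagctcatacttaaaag
Ifi35: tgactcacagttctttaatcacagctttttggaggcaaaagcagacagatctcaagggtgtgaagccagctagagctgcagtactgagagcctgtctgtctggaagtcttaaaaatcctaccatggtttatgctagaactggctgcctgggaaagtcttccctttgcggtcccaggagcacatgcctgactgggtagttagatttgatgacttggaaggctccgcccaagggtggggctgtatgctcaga

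The response element core was searched in windows of 300 bases, 250 before and 50 after the start. It was found for 6 of the 9 genes, B2m, Stat2, Isg15, Ifit1, Ifit3 and Gbp2, where 3.44% of 32851 promoter windows hold it. In B2m the match begins 139 bases before the start. Isg15 has 3 overlapping matches, beginning 78, 72 and 66 bases before the start. Irf1, Irf7 and Ifi35 have no match in their windows. The core of the gamma-activated site, TTCNNNGAA, which can share its GAA with the other motif and reads the same on both strands, is in 8.30% of windows. It was found for 2 of the 9 genes. In the first of 2 Irf1 windows it begins 90 bases before the start, and in Ifi35 8 bases after it. A match describes the sequence and is not a measured binding site.

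Of the 13 probe sets, 6 were above the floor on both arrays, 1 on the WT array alone and 6 on neither. By gene, 5 were above it on both arrays, 1 on WT alone and 3 on neither. Of the 6 genes with a ratio, 3 were lower in Null and 3 higher, and the median log2 ratio of Null over WT was 0.02, against -0.01 over 12447 genes on the 3 chips. None of the 6 was at least 2-fold different, where 3.17% of all genes were, with Isg15 entered at its bound. With Isg15 taken as measured, under a 20th percentile floor, the count was 1. At 1.5-fold 1 gene was lower, B2m, and 1 higher, Ifi35, where 11.9% of all genes passed in either direction. Their ratios lay on both sides of 0.

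**Figure D1:**
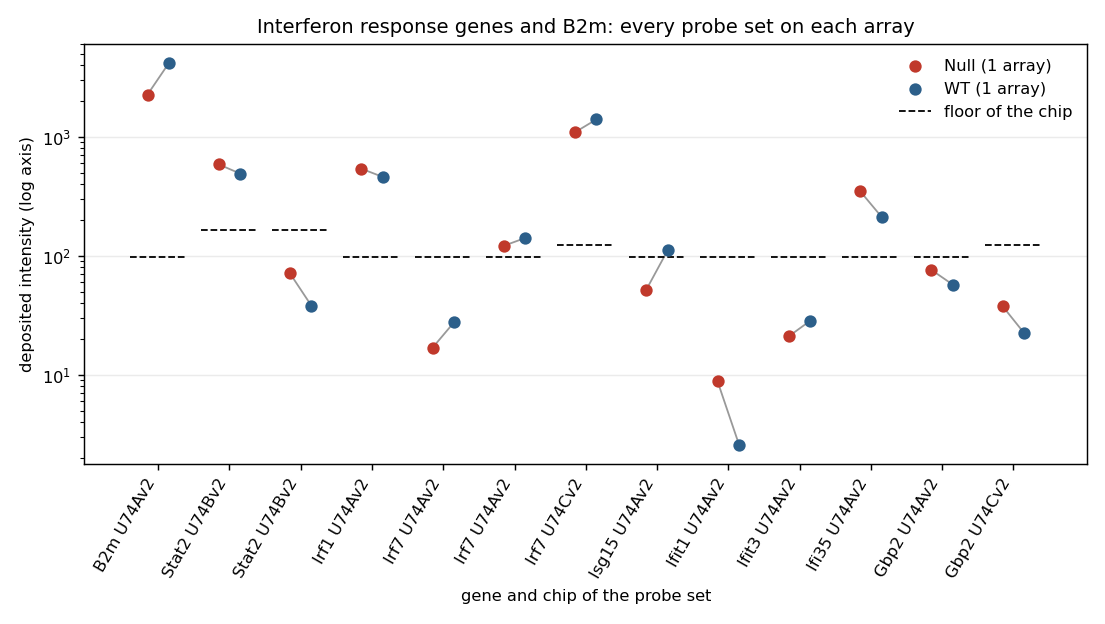
Deposited intensity (log axis) of each of the 13 probe sets on the Null array (red, left of each pair) and the WT array (blue, right), 1 array each, with the floor of the chip as a dashed line. B2m is bright and lower in Null, Ifi35 is higher in Null, and 6 probe sets lie below the floor on both arrays.

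B2m, which every nucleated cell needs to place MHC class I on its surface, differed most among the members above the floor on both arrays. Its single probe set, on U74Av2, read 2262.9 in Null against 4165.5 in WT. The log2 ratio was -0.89, or 1.85-fold lower in Null, and the spread between probe sets at that intensity was 0.17. On U74Av2 4.05% of probe sets were at least 1.5-fold lower in Null and 0.575% at least 2-fold lower. Among the 1243 probe sets at or above the 90th percentile of intensity on that chip, B2m had the lowest ratio. The median of these probe sets was -0.01 and their 1st percentile -0.59. Among the 2388 probe sets of the brightest intensity class, 4 had a ratio this low, B2m included. No second probe set of B2m stands on the 3 chips, so the value rests on 1 probe set and 1 array a genotype.

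**Figure D2:**
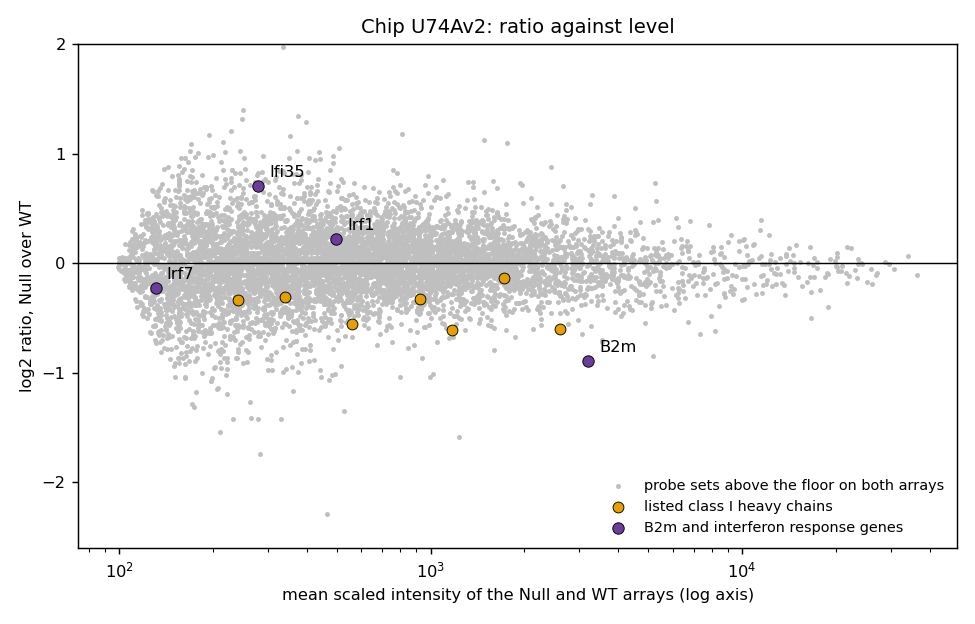
Log2 ratio of Null over WT against mean intensity (log axis) for the probe sets of U74Av2 above the floor on both arrays (grey), with the interferon response genes and B2m in purple and the listed MHC class I heavy chain genes in orange. B2m, at -0.89, lies below all other probe sets at or above the 90th percentile of intensity, and all the orange points lie below 0.

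Some heavy chains, the partners of beta-2 microglobulin, were lower in Null too, and others were not. The first described are the genes named H2 of a list of MHC class I and antigen loading genes, a subset taken after the values were seen. Of 6 on the chips, 5 were above the floor, and all 5 had ratios below 0, with a median of -0.56, or -0.34 with the mean over each gene's probe sets. Over all genes 51.5% were below 0. By probe set 8 of 9 were below 0. H2-K1, a classical heavy chain, read 2084.9 in Null against 3146.7 in WT in its brightest probe set, a log2 ratio of -0.60. Its others read 306 in Null against 375.7 in WT, and 99.1 in Null against 31.7 in WT, the exception, where WT lay below the floor.

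H2-Q10, a class I gene known for a secreted product of the liver, read 932.4 in Null against 1411.2 in WT, a log2 ratio of -0.61. H2-Q4, a nonclassical class I gene, read 456.6 in Null against 666.8 in WT, a log2 ratio of -0.56. The classical gene H2-D1 differed less, at 1654.1 in Null against 1807.7 in WT, a log2 ratio of -0.14, inside the spread of 0.17. A second H2-D1 probe set read 826.4 in Null against 1031.7 in WT, a log2 ratio of -0.33, beyond the same spread. The dimmest, near the floor, read 90 in Null against 103.8 in WT. The ratios of the brightest H2-K1 probe set, H2-Q10 and H2-Q4 also lie beyond the spread at their intensity. H2-M3, another nonclassical gene, read 213.4 in Null against 268.4 in WT, a log2 ratio of -0.34, inside the spread of 0.35 there. Apart from the dim exception of H2-K1, these probe sets carry the suffix f, s or g, which can mark probes shared by related transcripts, and class I genes are near copies. They may thus read the same transcripts and cannot be counted as independent.

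Class I genes outside the list had ratios on both sides of 0. The chips hold 10 more genes with H2-K, D, M, Q or T symbols, with 13 probe sets, of which 9 gave a ratio, 4 below 0 and 5 above. H2-K2 read 1174.9 in Null against 2023.4 in WT, a log2 ratio of -0.79, beyond the spread of 0.17. H2-Q2 read 1210 in Null against 762.1 in WT on U74Cv2, a log2 ratio of 0.64, beyond the spread of 0.32. The probe sets of H2-K2 and H2-Q2 carry the suffix f, so they too may read transcripts of other class I genes. A probe set of H2-M10.1 with the suffix g read 386.5 in Null against 97.3 in WT, which lay below the floor. Another, of plain design, read 137.2 in Null against 175.2 in WT. H2-M2 read 189.5 on both arrays. These genes were singled out after their values were seen.

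**Figure D3:**
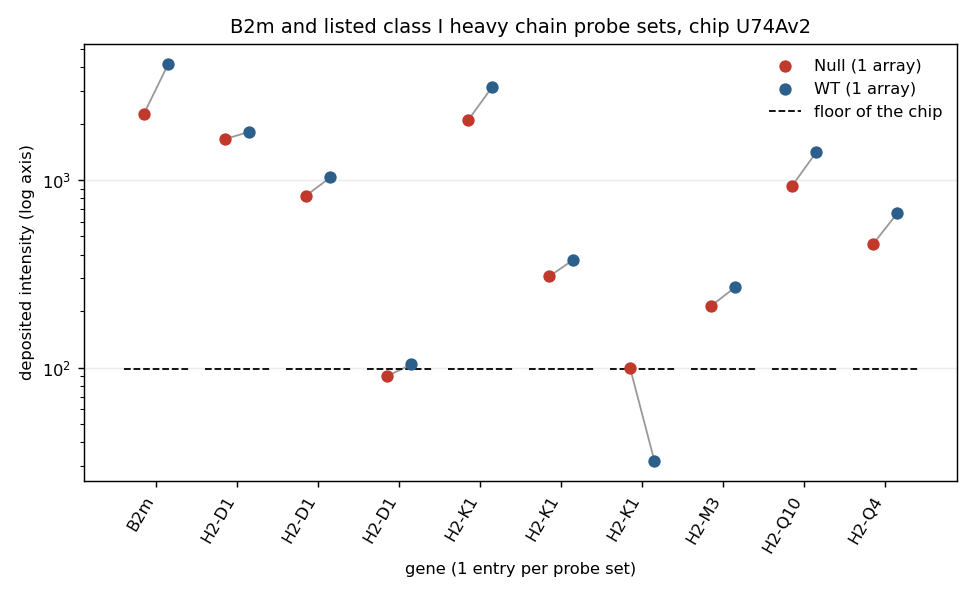
Deposited intensity (log axis) of B2m and of the listed class I heavy chain probe sets above the floor on at least 1 array of U74Av2, Null (red, left) beside WT (blue, right), with the floor of 98.3 dashed. B2m and 8 of these 9 heavy chain probe sets are lower in Null, and the exception is a dim probe set of H2-K1.

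The whole list of MHC class I and antigen loading genes had a median of -0.08 over 15 genes, 9 below 0 and 6 above. The rest of the list, the genes that cut, carry and load peptides for class I, also had ratios on both sides of 0. This split of the list was made after the values were seen. Of the 12 such genes of the list 10 were above the floor, 4 below 0 and 6 above, with a median of 0.14. The brightest was Psme1, a subunit of the proteasome activator that interferon gamma induces, at 2961.8 in Null against 2650.8 in WT, a log2 ratio of 0.15. Psmb8, a subunit of the immunoproteasome that interferon gamma induces, read 152.7 in Null against 160.1 in WT, a log2 ratio of -0.08. A second Psmb8 probe set, on U74Cv2, read 125.3 in Null against 208.2 in WT. Null lay below the floor there after scaling, which gives a bound of -0.75, beyond the spread of 0.57. Tap1, a chain of the peptide transporter, read 124.9 in Null against 113.3 in WT, a log2 ratio of 0.13. Tap1 and the first Psmb8 probe set, both on U74Av2, lie within the spread of 0.35 at their intensity.

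Of the transcription factors among the members, Stat2 and Irf1 had ratios inside the spread between probe sets. Stat2, which works with IRF9 in the type I interferon response, read 586.3 in Null against 491.1 in WT on U74Bv2, a log2 ratio of 0.25, inside the spread of 0.34. Its second probe set was below the floor on both arrays, at 71.1 in Null and 38.1 in WT. Irf1, an interferon gamma target that itself activates class I genes, read 539.6 in Null against 460.7 in WT, a log2 ratio of 0.22, inside the spread of 0.27. For both, like shares of the probe sets in the same intensity class of the chip had a ratio at least this high, 23.4% for Stat2 and 23.3% for Irf1.

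Irf7, a driver of type I interferon production, has 3 probe sets. That on U74Cv2 read 1093.1 in Null against 1401.4 in WT, a log2 ratio of -0.38, beside a spread of 0.32. Of the probe sets in its intensity class on that chip, 13.3% had a ratio this low. At 1.30-fold lower it did not reach 1.5-fold, which 13.8% of the probe sets of the chip did. On U74Av2 a second read 121.5 in Null against 141.2 in WT, a log2 ratio of -0.23, inside the spread of 0.35. Both went the same way, and both carry the suffix f. The third, whose name has no suffix (plain design), was below the floor, at 16.9 in Null and 27.6 in WT.

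The antiviral effectors were dim. Isg15, a ubiquitin-like protein joined to other proteins after interferon, read 52 in Null against 111.6 in WT. The WT value lay just over the floor of 98.3 and the Null value below it, so that Isg15 was at least 1.14-fold lower in Null. Ifit1, which binds foreign RNA, read 8.8 in Null and 2.6 in WT. Ifit3, of the same family, read 21.1 in Null and 28.5 in WT. Gbp2, a GTPase induced by interferon gamma, read 76.2 in Null and 57.3 in WT on U74Av2, and 37.7 in Null and 22.5 in WT on U74Cv2. Ifit1, Ifit3 and Gbp2 were below the floor on all arrays that carry them and give no fold.

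Ifi35, an interferon-induced leucine zipper protein, was the member highest in Null. It read 349.2 in Null against 212.9 in WT on U74Av2, a log2 ratio of 0.71, or 1.63-fold higher. The spread at that intensity was 0.35, and 2.74% of the 2373 probe sets of the dimmest class had a ratio at least this high. On the whole chip 3.29% were at least 1.5-fold higher in Null. It has no second probe set. Under a 60th percentile floor it was a bound of 0.23.

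The rest of the interferon pathway had ratios on both sides of 0. Of 54 other interferon-stimulated genes, listed with earlier results known, 47 were on the chips and 29 above the floor, 15 below 0 and 14 above, with a median of -0.02. At least 2-fold lower was 1, where 1.71% of all genes were. This was Oasl1, of the oligoadenylate synthetase-like family, at 96.1 in Null against 336 in WT on U74Bv2, a bound of 2.03-fold lower, since Null lay below the floor. The related Oasl2 read 260.9 in Null against 113 in WT, at least 1.57-fold higher.

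The brightest of the list had ratios between -0.25 and 0.20 in their brightest probe sets. Lgals3bp, a secreted scavenger receptor protein, read 2754.1 in Null against 2366.7 in WT on U74Cv2, a log2 ratio of 0.20. A dim Lgals3bp probe set of plain design, on U74Av2, went the other way, at 91.1 in Null against 128.3 in WT. Null lay below the floor there, which gives a bound of -0.38. Bst2, or tetherin, which holds budding virus at the cell surface, read 1474.7 in Null against 1548.6 in WT, a log2 ratio of -0.08. Ifi27 read 1463.2 in Null against 1733 in WT, a log2 ratio of -0.25, beyond the spread of 0.17. Of the 47 genes of the list on the chips, 29 were above the floor and 18 were not. Strongly interferon-induced genes such as Ifit2, Mx1, Cxcl10, Usp18 and Ifi47 were among the 18, below the floor on both arrays. Oas3, at 1143.4 in Null against 1256.7 in WT on U74Cv2, was among the 29. So was Ddx58, at 324.9 in Null against 258 in WT on U74Bv2. The examples from the 18 and from the 29 were singled out after their values were seen.

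Receptors and signalling genes had a median of -0.04 over 17 genes above the floor, 9 below 0 and 8 above. None was 2-fold different. The brightest were Ifngr2, a chain of the interferon gamma receptor, at 5541.6 in Null against 6110.4 in WT, the kinase Jak1 at 3503.2 in Null against 3287.6 in WT, and Ifnar1, a chain of the type I receptor, at 3175.3 in Null against 3054.6 in WT. Their log2 ratios were -0.15, 0.07 and 0.03. Dimmer probe sets of these genes, on U74Av2, gave 0.10 for Ifngr2, -0.02 for Jak1 and 0.22 for Ifnar1. Of 9 interferon ligand genes on the chips 7 were below the floor on both arrays, Ifnb1 and Ifng among them. The 2 others were Ifna5, at 121.3 in Null against 198.2 in WT, and Ifna4, at 123.7 in Null against 96.3 in WT, which lay below the floor. Their probe sets carry the suffixes f and i, so neither is of plain design. A second Ifna4 probe set was below the floor on both arrays, at 10.4 in Null and 43.5 in WT.

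Markers of white blood cells, which hold much MHC class I, were lower in Null by the median. Of 18 listed, 14 were above the floor, 11 below 0 and 3 above, with a median of -0.22 and a range of -0.48 to 0.81. The 3 above 0 were Coro1a, at 460 in Null against 260.3 in WT (log2 ratio 0.81), Cd14 (0.11) and Csf1r (0.01). A dimmer Csf1r probe set gave -0.81. The 12 of them measured on U74Av2 summed to 8307.8 in Null against 9463.6 in WT. The brightest, the lysosomal gene Laptm5 of blood cells, read 10423 in Null against 13972.2 in WT on U74Cv2, a log2 ratio of -0.45, while its probe sets on U74Av2 gave -0.01 and -0.19. The complement genes of macrophages C1qa, C1qb and C1qc summed to 3898.2 in Null against 4655.4 in WT on U74Av2, with ratios of -0.22, -0.12 and -0.41. A second C1qc probe set, on U74Cv2, went the other way, at 652.5 in Null against 460.5 in WT, a log2 ratio of 0.48. Ptprc, which marks all white blood cells, Itgam, Fcer1g and Cd3e were below the floor on every array that carries them. Of the 18, those above the floor on both arrays and lower in Null had smaller differences than B2m. Adgre1, at 33.5 in Null against 110.4 in WT, and Cd79a, at 50.8 in Null against 137.1 in WT, are outside that comparison. Both lay below the floor in Null and give only bounds. MHC class II genes, which macrophages and B cells carry and interferon gamma induces, had a median of -0.24 over 4 genes. Of these H2-Ab1 read 83.2 in Null against 196.9 in WT, at least 2-fold lower with Null below the floor. Sertoli markers had a median of -0.16, Leydig markers -0.37, peritubular markers -0.05, endothelial markers 0.12 and germ cell markers 0.18. Of the 8 Sertoli markers 7 were below 0 and 1 above, where 51.5% of all genes were below 0. Among these 8 Rhox5, above the floor on both arrays, differed more than B2m. It read 523.7 in Null against 1071.6 in WT on U74Av2, a log2 ratio of -1.04. The part of these cell types in the B2m difference was not tested.

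**Figure D4:**
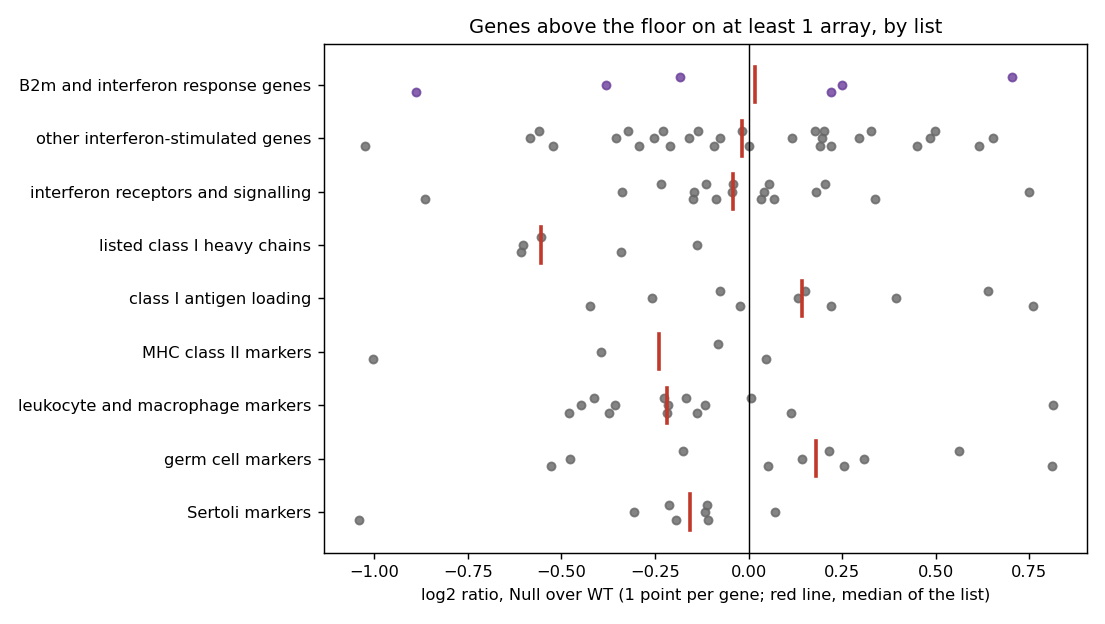
Log2 ratio of Null over WT for each gene above the floor on at least 1 array (1 point a gene, bounds included), by list, with the median as a red line. The interferon response genes, with B2m (-0.89) counted among them, and the other interferon-stimulated genes spread around 0, at medians of 0.02 and -0.02. The 5 listed class I heavy chains lie at a median of -0.56.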

How the data were processed

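RNA was measured on 6 single-colour arrays, 1 Null and 1 WT array of each of 3 chips, grouped by their titles. The values were deposited by the authors as linear intensities per probe set. The mean without the outer 2% of values at either end came to 499.9 on every array, so each had been scaled before deposit. The software is not given in the sources used here. Neither detection calls nor scanner files entered.

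Gene names came from GEO's platform annotation, matched by Entrez identifier to RefSeq of GRCm38.p6. Only probe sets with 1 symbol were named, 10833, 10581 and 7717 on the chips. Control probe sets, 66 a chip, were left out. Null values were divided by the median ratio over probe sets whose mean rank was at or above its median (log2 shifts of 0.01, 0.00 and 0.02). Values were raised to the floor before the log2 ratio was taken. The spread is the scaled median absolute difference between probe sets of 1 gene, divided by the square root of 2, by intensity class. Each gene took its brightest probe set, by intensity percentile in its chip. All members' probe sets are named. From each pathway list those at least 2-fold different and the 3 brightest are named, and the genes of MHC class I and of the cell type lists beyond these were named after their values were seen. The members and lists were chosen with earlier results of these data known. The number of arrays limits the precision. Python 3.11.15, numpy 2.4.6 and pandas 2.3.3 were used, and the calculation was tested on simulated data.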

Additional observations from a re-analysis of the deposited data

How the results depend on the processing

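The B2m log2 ratio stayed between -0.89 and -0.87 in the 6 settings that gave it, which left out the scaling, used quantile normalization or loess on intensity, set the floor at the 20th or 60th percentile, or set none. The changes of floor could not move the B2m ratio, since both its readings lay above each floor. The median of the members was 0.22 for a 60th percentile floor (5 genes), 0.22 for no floor (9 genes) and 0.22 for probe sets of plain design alone (5 genes). Members at least 2-fold different numbered 1 for a 20th percentile floor and 2 for no floor, and at a threshold of 1.5-fold there were 2. Isg15 stood at -1.11 under a 20th percentile floor or none, where the Null value of 52 was taken as measured. The median of the listed class I heavy chains, added after the data were seen, lay between -0.58 and -0.34 over the alternatives that gave it, the last with the mean over a gene's probe sets. Probe sets of plain design gave it no value, since they left 1 heavy chain gene. Of 97 list medians under alternatives, 94 moved by less than 0.17. The exceptions were this one and those of the Leydig markers under a 20th percentile floor and under none, both at -0.58. No paired analysis was possible because each genotype has 1 array on each chip and no test was made. No array could be left out, since each group holds 1.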

Other observations

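Tapbp and Ptpn2 were among the genes with probe sets that disagreed. Tapbp, which holds class I near the peptide transporter, read 1766.6 in Null against 2355.5 in WT (log2 ratio -0.42), 368.7 in Null against 529.5 in WT (-0.53), and 303.2 in Null against 250.4 in WT (0.27), all on U74Av2. Ptpn2, a phosphatase that damps JAK signalling, had log2 ratios of 0.06 on U74Av2 and of 0.75 and -0.74 on U74Cv2, where another, with Null below the floor, gave a bound of -0.49. Apart from these, Irf5, a factor of macrophage and B cell inflammatory responses, read 154.6 in Null against 279.5 in WT, a log2 ratio of -0.86 in the one probe set above the floor, and 2.02% of the probe sets of the dimmest of 3 intensity classes were as low. These genes were singled out after their values were seen.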
